A study of Rattus norvegicus with 55 samples.

Results

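Kidney RNA from rats with a high signal for RT1-Bb was compared between arrays described as young and arrays whose description gives no stage. RT1-Bb encodes the beta chain of a class II histocompatibility molecule, which presents antigen fragments to T cells. An array entered the comparison if its RT1-Bb probe set (X56596_at) read above 600, which 12 of 55 arrays did. The 6 arrays compared were 3 of the 14 young arrays (replicates 1, 2 and 14) and 3 of the 14 arrays without a stage word (replicates 4, 8 and 12), called unstaged here. The 12 arrays read 1411.5 or more and the other 43 read 263.0 or less, so no array lay near the threshold. On the young arrays RT1-Bb read 1953.6, 1724.7 and 1880.0, and on the unstaged arrays 1794.6, 2381.2 and 1484.4. RT1-Bb chose the arrays in both groups alike, so these values are a description and not a result.

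All samples are titled SHR kidney, SHR being the common abbreviation for a rat strain with inherited high blood pressure, and the descriptions call the rats Wistar-derived. The source of every sample is kidney and the molecule total RNA. No treatment, genotype, age or sex is given for either group, and the absence of a stage word is not explained. The labels do not say that arrays came from separate animals, so p-values measure the spread between these arrays, which may be technical. With 3 arrays a group, an exact permutation test of a single gene could not give a p below 0.10, and so few arrays limit how precise each value is. The values are the deposited intensities, analysed as log2(intensity + 15.82) with limma. Differences are unstaged minus young, and called means an adjusted p (Benjamini-Hochberg over 6555 probe sets) below 0.05.

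The postnatal rat kidney grows by cell division, lays down and remodels matrix, and builds up the transporters of its tubules. Class II molecules in kidney are carried mostly by dendritic cells and macrophages. There the invariant chain, encoded by Cd74, guides the molecules to endosomes, where proteases such as cathepsin S, encoded by Ctss, remove it before a peptide is loaded.

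The upstream promoter stretches of the gene that chose the arrays and of RT1-Ba, its alpha chain partner and a member that rose, are shown because both genes are under 1 shared type of class II promoter. They are the 250 bases before the annotated start in RefSeq, assembly GRCr8, printed 5′ to 3′ on the gene's strand. Capitals mark CTGATTGG, the Y box letters of class II promoters, and TGACGTCA, a cAMP response element like form of the X2 box, both searched on both strands.
RT1-Bb (chr20:4604119-4604368, - strand): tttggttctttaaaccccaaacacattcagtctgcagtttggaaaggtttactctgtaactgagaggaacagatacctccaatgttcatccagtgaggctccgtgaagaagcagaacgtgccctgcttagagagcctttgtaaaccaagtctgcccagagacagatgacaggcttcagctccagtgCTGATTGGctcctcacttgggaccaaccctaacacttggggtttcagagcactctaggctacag
RT1-Ba (chr20:4576807-4577056, + strand): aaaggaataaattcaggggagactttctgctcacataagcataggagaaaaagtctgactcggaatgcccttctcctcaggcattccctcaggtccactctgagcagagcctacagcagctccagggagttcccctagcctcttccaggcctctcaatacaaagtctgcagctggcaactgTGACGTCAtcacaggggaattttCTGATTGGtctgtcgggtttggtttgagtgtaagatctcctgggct
CTGATTGG stood in both stretches, and also in those of RT1-Da and RT1-Db1, so in 4 of 4, against 3.19% of 33469 RefSeq promoters of that length. TGACGTCA stood in RT1-Ba alone of the 4, against 1.59% of all promoters. These are letter matches in the reference and not measured binding.

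Each array correlated more closely with the arrays of its own group than with those of the other. Over the 6555 probe sets tested, on the log2 scale, the 6 within-group pairs lay at r = 0.9755 to 0.9798 and the 9 between-group pairs at 0.9574 to 0.9626. This is a description across probe sets of arrays of 1 scaling. No pair of arrays held identical values. Of the kidney's cell types, the proximal tubule markers Slc34a1 and Lrp2 and the thick ascending limb marker Umod lay above the 99th percentile of all probe sets. The other proximal tubule markers, Aqp1, Slc5a2 and Slc22a6, lay lower, at percentiles 98.5, 94.9 and 94.6. The other thick ascending limb marker, Slc12a1, lay at 78.1. The podocyte markers Nphs1 and Podxl, the T cell marker Cd3e and the macrophage marker Cd68 are not on the array.

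Several technical readings moved with the groups. The 55 arrays were grouped by their control probe sets into 3 technical sets, a number that was chosen, and all 6 arrays lay in the second, set 2. The 5S ribosomal RNA control read 166.1 to 228.7 on the young and 411.7 to 470.7 on the unstaged arrays. Array medians were 155.8 to 164.3 against 142.6 to 146.1, and GAPDH 3'/5' ratios 0.891 to 0.982 against 1.032 to 1.080. In none of these 3 did the groups overlap, while actin 3'/5' ratios (1.264 to 1.503 and 1.200 to 1.371) did. The part of these readings in the results below was not tested.

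**Figure D1:**
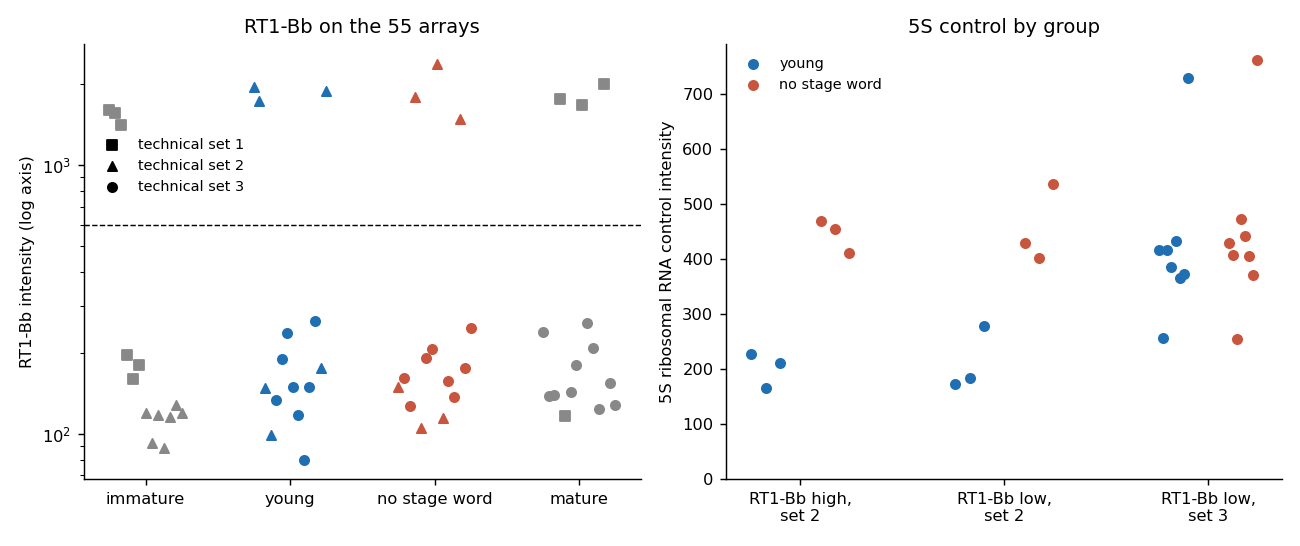
Left, RT1-Bb intensity (log axis) on each of the 55 arrays by group, with technical sets 1 to 3 as squares, triangles and circles and the threshold of 600 as a dashed line. The 12 arrays above it lie at 1411.5 or more. Right, intensity of the 5S control on young (blue) and unstaged (red) arrays by RT1-Bb class and technical set. In set 2 the unstaged arrays lie above the young ones in both classes, while in set 3 the groups overlap.

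The leading changes were a fall of Irf3 and Vegfa and a rise of Kl, Rbp4 and Stk25. Of 6555 probe sets 673 were called (10.3%), 215 higher (3.28%) and 458 lower (6.99%) on the unstaged arrays. Of 3835 genes, each taken at its brightest probe set, 353 were called (9.2%), 114 higher (2.97%) and 239 lower (6.23%). With quantile normalization 268 genes were called (6.99%), 3.49% higher and 3.49% lower. With median centring 391 were called (10.2%), 6.91% higher and 3.29% lower. A log2 difference of at least 1 was reached by 150 of the called probe sets, 40 higher and 110 lower. The split between higher and lower depended on the scaling. As deposited the median log2 difference was -0.087, while with quantile normalization it was 0.006 with 234 higher and 261 lower, and with each array centred on its median 0.062 with 452 higher and 248 lower. All 673 called probe sets kept their direction under both, and 392 were called under both (175 higher, 217 lower). Counts per list are therefore given for the deposited scale, with the other scalings beside them for some lists only. Where none are given the counts may differ.

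Fewer probe sets were called without any 1 array. Their number was 191, 350 and 170 without young replicate 1, 2 or 14 and 226, 224 and 223 without unstaged replicate 4, 8 or 12. It was 79 with the spread taken over all 12 RT1-Bb-high arrays and 4 with the spread of all 55 arrays, which hold several technical sets.

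Irf3, a transcription factor that switches on type I interferon genes, fell most of all named genes. Its probe set (rc_AA893384_g_at) read 1057.3, 909.0 and 1048.8 on the young arrays and 60.3, 57.8 and 47.4 on the unstaged arrays. Every unstaged array was far below every young one, a log2 difference of -3.85 ± 0.13 (SE; limma, adjusted p = 7.8e-05, n = 3 a group). Vegfa, the growth factor that keeps the capillaries of glomeruli and tubules, read 832.0, 857.9 and 701.2 against 205.5, 236.2 and 192.2, a difference of -1.84 ± 0.13 (adjusted p = 0.0024). Its 3 other probe sets lay at -2.12, -0.42 and -1.68, and 2 of them were called, so the fall did not rest on 1 probe set.

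Other large falls included signalling and nuclear genes. Map3k12, a kinase upstream of JNK, read 524.3, 626.7 and 698.9 on young and between 56.0 and 153.9 on unstaged arrays, without overlap. Ogt, the enzyme that adds N-acetylglucosamine to nuclear and cytoplasmic proteins, read 187.4, 226.8 and 227.9 against 52.0, 76.7 and 61.9. Both passed the limma test, at -2.49 ± 0.30 (adjusted p = 0.0079) and -1.54 ± 0.15 (adjusted p = 0.0047). Pnn, a nuclear speckle and desmosome protein, read 628.1, 690.9 and 581.5 against 94.8, 206.5 and 230.1 (-1.83 ± 0.30). The other falls among the 12 largest were Ifrd1 (-2.02), Rasl11b (-1.90), the neuronal and endocrine factor Neurod1 (-1.73), Apbb3 (-1.70), the mesenchyme and podocyte factor Tcf21 (-1.70), Zfp775 (-1.62) and the splicing factor kinase Clk3 (-1.51). Apbb3 did not pass with quantile normalization (adjusted p = 0.073) or centring (0.061), nor Tcf21 with quantile normalization (0.060).

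Among the rises, Kl encodes klotho, the co-receptor through which FGF23 acts on the tubule. It read 185.3, 168.9 and 169.3 on the young arrays and 755.0, 728.0 and 554.4 on the unstaged arrays, a log2 difference of 1.86 ± 0.15 (limma, adjusted p = 0.0032). The lowest unstaged array was well above the highest young one. Rbp4, the plasma carrier of retinol that the proximal tubule takes up from the filtrate, read 90.9, 133.3 and 122.3 against 424.6, 586.6 and 468.9 (1.96 ± 0.18), and its other probe set lay at 0.64 without being called. Stk25, a kinase at the Golgi apparatus, read 7.7, 11.6 and 36.8 against 192.0, 175.9 and 135.4 (2.49 ± 0.31). Its young values are near the offset, so its difference is understated by the scale.

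Pdpk1, the kinase that activates AKT, read 40.9, 49.1 and 52.1 on young and 178.4, 217.2 and 182.3 on unstaged arrays (1.72 ± 0.13). Slc13a2, the citrate and dicarboxylate transporter of the proximal tubule, read 412.7, 629.8 and 472.9 against 1089.4, 1308.8 and 1191.4 (1.24 ± 0.17). Both were higher on every unstaged array than on any young one. The 12 largest rises also held Cirbp (1.72), a cold-inducible RNA-binding protein, Dedd (1.69), Gng8 (1.56), Cdv3 (1.36), Gorasp1 (1.31), Wfdc1 (1.30) and the trefoil peptide Tff2 (1.26). The second probe set of Gng8 lay at -0.17.

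**Figure D2:**
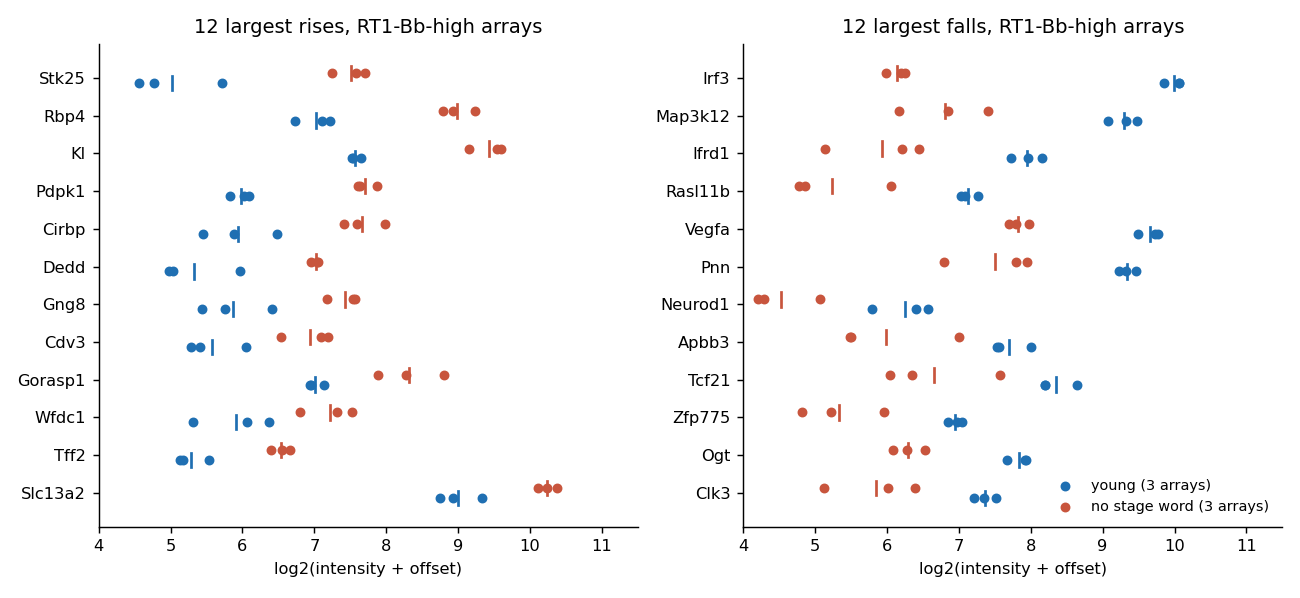
Each of the 6 arrays as a point, on the scale log2(intensity + 15.82), for the 12 genes with the largest rise (left) and the 12 with the largest fall (right). Blue marks the 3 young and red the 3 unstaged arrays, and vertical strokes are group means. The groups do not overlap for any of these genes, which the choice by size and adjusted p favours.

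Cd74, Ctss and RT1-Ba, genes of class II antigen loading, rose. Of the 9 genes of antigen loading tested, 3 were called higher and 0 lower (33.3% higher, against 2.97% of all genes), and all 9 lay above 0 with a median of 0.30. Cd74 read 2443.4, 2429.6 and 2596.2 on young and 4639.3, 4661.2 and 4664.2 on unstaged arrays, a log2 difference of 0.90 ± 0.10 (limma, adjusted p = 0.0062). All unstaged arrays were above all young ones, and 1 of its 3 other probe sets was called, also higher. Ctss read 775.8, 920.3 and 874.0 against 1338.1, 1415.8 and 1404.4 (0.69 ± 0.11). RT1-Ba read 1805.1, 2157.9 and 1889.5 against 2805.3, 3183.9 and 3046.7 (0.63 ± 0.12), but of its other probe sets 1 lay at -0.16 and 1 at 0.39. The brightest probe set of RT1-Bb lay at 0.14, a description only, since RT1-Bb chose the arrays. Since all arrays were chosen on a class II gene, this list is not independent of the rule, and its counts are a description only. RT1-Ba also followed the split of arrays by RT1-Bb. On set 2 arrays below the threshold it read 720.4 to 766.0 (young) and 645.9 to 677.0 (unstaged). The general leukocyte marker Ptprc lay at -0.14 (limma, adjusted p = 0.79).

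Other immune genes did not follow as a group. Of 18 class I and interferon response genes 1 was higher (5.56%, against 2.97% of all genes) and 0 were lower. It was RT1-S3, a non-classical class I gene (0.56 ± 0.11, limma, adjusted p = 0.027). Its other probe sets lay at 0.09 and 0.06 and were not called. Mx1, an interferon-induced GTPase, lay at -0.44 and was not called (limma, adjusted p = 0.094). Of 10 immune cell genes 1 was lower (10.0%, against 6.23% of all genes) and 0 higher. It was the monocyte attractant Ccl2, at 259.4, 197.6 and 323.8 against 128.9, 123.2 and 137.4, and both of its probe sets were called. C1qb, a complement gene of macrophages, lay at 1.40 (adjusted p = 0.083), and its other probe set, at 0.96, was called.

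Col3a1, Col4a5 and 4 other matrix genes fell. Of 32 genes of the extracellular matrix 6 were lower (18.8%, against 6.23% of all genes) and 0 higher, 24 of 32 lay below 0 and 8 above, and the median was -0.28 against -0.08 for all genes. Col3a1, a fibrillar collagen, read 1154.1, 945.9 and 990.8 on young and 342.6, 481.8 and 487.4 on unstaged arrays, a log2 difference of -1.22 ± 0.17 (limma, adjusted p = 0.011). Col4a5, a basement membrane collagen, read 546.3, 594.1 and 510.5 against 256.4, 286.2 and 256.7 (-1.003 ± 0.11, adjusted p = 0.0066). Neither gene's groups overlapped, but the other probe set of Col3a1 lay at -0.40 and was not called (adjusted p = 0.13). Fn1, fibronectin, lay at -0.84, with 1 of its 3 other probe sets called, the proteoglycan Vcan at -0.90, Col5a2 at -0.79 and Col12a1 at -0.74. Col1a1 lay at -0.96 but did not pass (adjusted p = 0.12), and its groups overlapped, with unstaged replicate 8 at 1341.7 and the young arrays at 1279.6 to 1866.8. With quantile normalization or centring 5 were lower, without Col5a2.

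Cdk1, Top2a and Cdc20, genes of dividing cells, were lower. Of 21 cell cycle genes these 3 were called lower and 0 higher (14.3%, against 6.23%), 4 lay above 0, and the median was -0.19. Cdk1, the kinase of mitotic entry, read 182.3, 190.5 and 165.3 against 73.8, 98.2 and 70.3 (-1.02 ± 0.14, limma, adjusted p = 0.011). Top2a, which untangles replicated DNA, read 355.7, 311.7 and 340.3 against 197.1, 199.3 and 153.6 (-0.83 ± 0.13), and Cdc20, an activator of the anaphase ubiquitin ligase, 272.7, 243.9 and 339.8 against 150.3, 180.3 and 125.6 (-0.84 ± 0.17). Every unstaged array was below every young array for the 3 genes, although Cdc20 missed the threshold with quantile normalization (adjusted p = 0.053). Ccnd2, a G1 cyclin, lay at 0.50 (adjusted p = 0.052) and passed under both other scalings, and its other probe set was called higher as deposited (0.79 ± 0.18, adjusted p = 0.04). The other probe set of Top2a lay at -0.50 and was not called (adjusted p = 0.066).

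Upstream stretches of these 3 genes are shown since they fell together, again 250 bases from RefSeq, assembly GRCr8. Capitals mark CCAAT, the box bound by NF-Y, and TTTGAA, core letters of the cell cycle genes homology region, both searched on both strands.
Cdk1 (chr20:19265043-19265292, + strand): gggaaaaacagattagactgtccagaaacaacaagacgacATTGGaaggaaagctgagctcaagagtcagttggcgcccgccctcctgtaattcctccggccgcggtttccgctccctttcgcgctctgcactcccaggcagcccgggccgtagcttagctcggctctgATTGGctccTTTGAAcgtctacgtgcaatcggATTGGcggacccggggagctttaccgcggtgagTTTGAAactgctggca
Top2a (chr10:84473094-84473343, - strand): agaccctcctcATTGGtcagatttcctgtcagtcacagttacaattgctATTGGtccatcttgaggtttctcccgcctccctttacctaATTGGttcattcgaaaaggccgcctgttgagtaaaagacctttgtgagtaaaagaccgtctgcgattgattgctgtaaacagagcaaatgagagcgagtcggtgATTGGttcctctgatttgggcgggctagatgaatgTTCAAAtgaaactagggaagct
Cdc20 (chr5:137255800-137256049, - strand): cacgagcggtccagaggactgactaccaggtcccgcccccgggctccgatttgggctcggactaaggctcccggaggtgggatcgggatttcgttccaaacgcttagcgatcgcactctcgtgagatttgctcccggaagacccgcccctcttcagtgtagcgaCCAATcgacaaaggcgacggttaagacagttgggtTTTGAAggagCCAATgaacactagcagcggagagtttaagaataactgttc
Matches of CCAAT numbered 3, 4 and 2 and those of TTTGAA 2, 1 and 1, in this order, without overlap. Of all 33469 promoters 34.0% held CCAAT and 16.2% TTTGAA in this window. The matches describe the reference sequence, and no binding was measured.

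Among tubule genes, Slc13a2 and Ggt1 rose and Slc9a3 fell. Of 37 proximal tubule genes 5 were higher (13.5%, against 2.97% of all genes) and 1 lower (2.7%, against 6.23%), with a median of 0.18. Beside Slc13a2, the brush border enzyme gene Ggt1 read 4563.8, 5320.0 and 4753.7 against 9256.1, 10326.2 and 9843.6 (1.01 ± 0.11, limma, adjusted p = 0.0066). The fructose transporter Slc2a5 lay at 0.69, the water channels Aqp1 at 0.50 and Aqp7 at 0.40. Slc9a3, the sodium-hydrogen exchanger of the brush border, went the other way, from 767.6, 673.4 and 797.5 to 337.1, 295.8 and 272.9 (-1.26 ± 0.13, adjusted p = 0.0048). Aqp1 missed the threshold with quantile normalization (adjusted p = 0.11), and 12 were higher with centring, where 6.91% of all genes were higher. In bulk tissue fewer cells of a type and less RNA per cell cannot be told apart.

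Of 31 genes of the loop and distal nephron 1 was higher (3.23%, against 2.97% of all genes) and 3 were lower (9.68%, against 6.23%). Hsd11b2, which protects the mineralocorticoid receptor from glucocorticoids, read 2064.8, 2135.9 and 2039.4 against 3214.8, 2913.1 and 3202.2 (0.58 ± 0.10, adjusted p = 0.021, limma). The collecting duct water channels Aqp3 (-0.61) and Aqp4 (-1.07) and the thiazide-sensitive cotransporter Slc12a3 (-0.44) were lower as deposited, but none of the 3 passed under the other scalings. The second probe set of Slc12a3 was called higher, at 1.41, so the direction of this gene is uncertain. Of 22 genes of podocytes, endothelium and smooth muscle Vegfa alone was called (4.55% lower, against 6.23% of all genes). With the other scalings Pecam1, an endothelial adhesion gene (0.59), and the podocyte phosphatase Ptpro (0.30) passed as well. Their adjusted p as deposited was 0.055 and 0.099.

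Klk1 and Klk1c9, of the kallikrein family, rose. Klk1, the tissue kallikrein that releases kinins, read 3621.2, 3920.1 and 4021.2 on young and 6711.2, 7556.6 and 7107.7 on unstaged arrays (0.88 ± 0.11, limma, adjusted p = 0.0079), and its other probe set was called in the same direction. Klk1c9 lay at 0.72 ± 0.16 (adjusted p = 0.036). The 2 genes belong to a family of near-identical sequences, and probe sets may read several members. Among the other 17 of the 19 renin, angiotensin and kallikrein genes 0 were called, with the receptor Agtr1a at -0.42 (adjusted p = 0.068).

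Eicosanoid and P450 genes changed both ways. Of 34 tested 3 were higher (8.82%, against 2.97% of all genes) and 1 lower (2.94%, against 6.23%). Cyp2c11, a male-predominant P450 of rat liver, read 1359.8, 2188.9 and 1352.3 against 3362.6, 2970.1 and 3372.2 (1.01 ± 0.20, limma, adjusted p = 0.029). Cyp2e1 lay at 0.72, Cyp4a3, of the arachidonate hydroxylase family, at 1.02, and Pla2g4a, the phospholipase that releases arachidonate, at -0.59. Other probe sets of Cyp2c11 lay at 0.43 and 1.28 and those of Cyp2e1 at 0.24 and 0.44, none of them called. The fall of Pla2g4a did not pass under the other scalings.

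Metabolic lists were mixed. Of all genes 2.97% were higher and 6.23% lower. Of 41 glutathione and conjugation enzymes 3 were higher (7.32%), Ggt1, Gss and Mgst1, and 1, Gstt2, was lower (2.44%) at -0.96. The second probe set of Gstt2 was called in the opposite direction (0.94). Of 39 genes of fatty acid oxidation and the peroxisome 3 were higher (7.69%), including Echs1 (0.65), and 4 lower (10.3%). Those lower included the electron transfer gene Etfa (-0.70) and the ketone body enzyme Bdh1 (-0.74). Of 21 sterol and lipid synthesis genes 3 were lower (14.3%) and 0 higher. They were Sqle (-0.75), Me1 (-0.53) and Nsdhl (-0.48), but Sqle alone passed under both other scalings. Of 46 enzymes of amino acid metabolism and gluconeogenesis 3 were higher and 3 lower (6.52% each). Haao (0.65) of tryptophan breakdown was among the higher, and Dmgdh (-0.97) and the creatine synthesis enzyme Gatm (-0.56) among the lower. As deposited, none of these lists moved as 1 block. With centring, genes higher and lower numbered 6 and 1 for glutathione, 5 and 2 for fatty acid oxidation and 2 and 1 for sterol synthesis. For the amino acid list they numbered 11 and 1, while 6.91% of all genes were higher and 3.29% lower. With quantile normalization the 4 lists, in the same order, gave 1 and 1, 3 and 3, 0 and 1, and 3 and 2.

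Of 49 oxidative phosphorylation genes 2 were higher (Cox5a 0.99, Ndufv3 0.49) and 4 lower (Uqcrc2 -0.83, Ndufs1 -0.73, Ndufa4 -0.60, Ndufc2 -0.56). These were 4.08% and 8.16% of the list, against 2.97% and 6.23% of all genes. The median of this list was 0.09 as deposited and -0.02 with quantile normalization. With quantile normalization 1 was higher and 4 lower, and with centring 6 were higher and 2 lower. Of 37 ribosomal protein genes 4 were higher and 0 lower (10.8% higher, against 2.97%), with a median of 0.23. Rps16 read 4943.4, 5066.7 and 5559.2 against 8122.2, 8201.0 and 8500.7 (0.67 ± 0.10, limma, adjusted p = 0.016), and Rpl13a, Rpl3 and Rplp0 lay at 0.66, 0.56 and 0.46. The other probe set of Rpl13a lay at 0.09 and was not called, while that of Rpl3 was called higher (0.48). The number of ribosomal protein genes higher was 3 with quantile normalization and 12 with centring, where 3.49% and 6.91% of all genes were higher. Proteasome genes numbered 20, with Psmc3 (0.66) and Psmb4 (0.58) higher and Psma1 (-0.47) lower. That is 10.0% higher and 5.0% lower, against 2.97% and 6.23% of all genes. Under both other scalings 0 proteasome genes were lower, so the fall of Psma1 did not pass there. Those higher were 2 with quantile normalization and 3 with centring. The other probe sets of Psmb4 (0.20 and 0.33) were not called, and that of Psma1, also not called, lay at 0.34.

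Of 11 clock genes 2 were lower (18.2%, against 6.23% of all genes) and 0 higher as deposited, with a median of -0.10 against -0.08 for all genes. With quantile normalization 1 was lower and 1 higher, and with centring 2 were lower and 1 higher. Per2, a repressor of the clock, read 113.6, 88.0 and 134.0 on young and 43.5, 60.9 and 39.9 on unstaged arrays (-0.996 ± 0.185). Nr1d2, the nuclear receptor REV-ERB beta, lay at -0.91 ± 0.18 (limma, adjusted p = 0.025 for Per2 and 0.027 for Nr1d2). Bmal1 (-0.45) and Bhlhe40 (0.39) were not called. The time of day of sampling is not in the labels. Of 29 immediate early and heat shock genes Jund alone was called (0.76), of 24 injury and repair genes the keratin Krt8 (0.70), and of 16 IGF and growth hormone genes the receptor Igf2r (-0.72). That is 3.45%, 4.17% and 6.25% of these lists, against 2.97% of all genes higher and 6.23% lower. Among 18 genes of blood and other tissues 1 was lower (5.56%, against 6.23% of all genes), the muscle creatine kinase Ckm. It read 141.3, 165.7 and 149.3 against 49.7, 43.4 and 59.0 (-1.34 ± 0.13, limma, adjusted p = 0.0047). The summed level of the 2 muscle markers was 199.1 to 241.5 on young and 96.8 to 130.9 on unstaged arrays, a gap carried by Ckm, since the other marker, Acta1, overlapped at 57.8 to 75.8 and 47.1 to 71.9. The summed level of the 2 adrenal markers on the array was 93.7 to 158.6 on young and 179.1 to 244.9 on unstaged arrays, carried by Cyp21a1 (1.01, adjusted p = 0.057), while Star was too dim to be tested. The part of RNA from these tissues in the results was not tested.

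**Figure D3:**
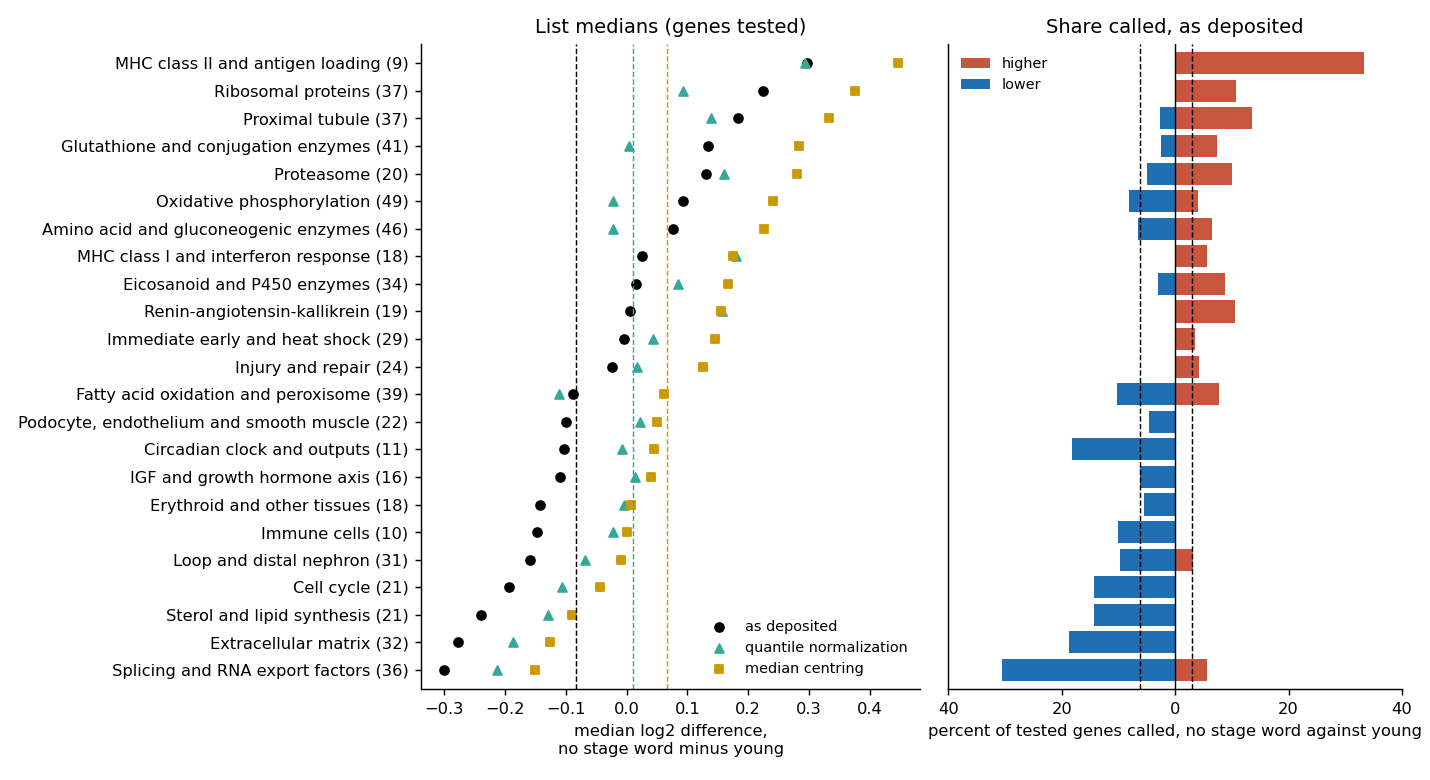
Left, median log2 difference of each gene list (number tested in brackets) as deposited (circles), with quantile normalization (triangles) and with median centring (squares), and dashed lines at the medians of all 3835 genes. Right, percent of each list called higher (red, to the right) and lower (blue, to the left) as deposited, with dashed lines at 2.97% and 6.23% for all genes. Class II genes had the highest median, 0.30, and this list is not independent of the rule that chose the arrays. The lowest, -0.30, was that of the splicing list, which was added after its values were seen.

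RT1-Bb-low arrays of the same 2 groups share no array with the comparison and give the same contrast in other samples. In technical set 2 the low arrays were young replicates 3, 4 and 13 and unstaged replicates 1, 5 and 9, and limma on these 6 called 107 probe sets (1.63%), 28 higher (0.427%) and 79 lower (1.21%). Of the 673 probe sets called on the RT1-Bb-high arrays 637 (94.7%) had the same sign there, against 72.3% of all 6555. Both comparisons called 70 in the same direction and 0 in opposite directions, which is 10.4% of the 673 and 65.4% of the 107. Over all probe sets the differences correlated at r = 0.63, as a description across probe sets of arrays of 1 technical set.

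In technical set 3 the pattern was largely absent. There 8 young and 8 unstaged arrays gave 1 call (0.0153%), with 403 probe sets at an unadjusted p below 0.05. Of the 673, 407 (60.5%) had the same sign, against 49.9% of all probe sets, and the correlation was 0.076. Probe sets called higher on the RT1-Bb-high arrays had a median of 0.67 there, of 0.45 on the low arrays of set 2 and of 0.05 in set 3, and those called lower medians of -0.74, -0.65 and -0.03. The young and unstaged 5S levels in set 3 overlapped, at 258.0 to 729.1 and 255.8 to 761.9. In the low arrays of set 2 they did not, at 173.4 to 278.5 and 402.8 to 537.0. Tested on the low arrays, the contrast differed between technical sets 2 and 3 at 109 probe sets (1.66%), with 1062 at an unadjusted p below 0.05. Vegfa (-1.49 ± 0.23, adjusted p = 0.0017) and Kl (1.63 ± 0.25, adjusted p = 0.0017) were among them.

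**Figure D4:**
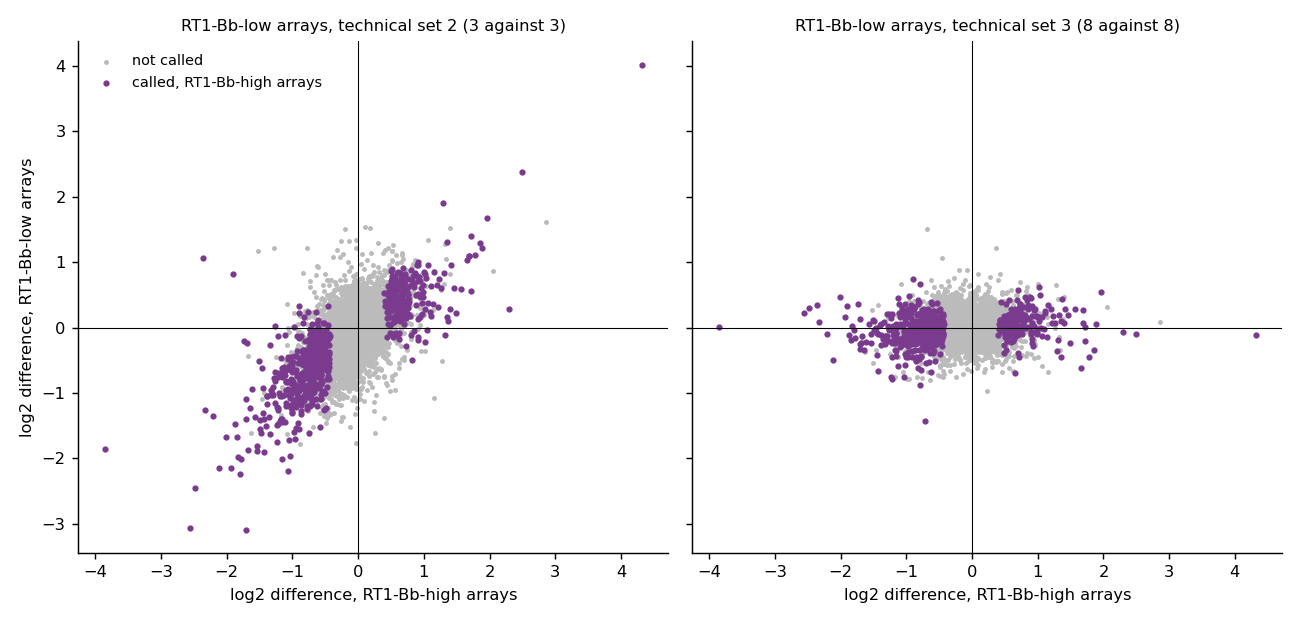
Log2 difference of each of the 6555 probe sets on the RT1-Bb-high arrays (x axis) against that on the RT1-Bb-low arrays (y axis) of technical set 2 (left) and set 3 (right). Purple points are the 673 called on the RT1-Bb-high arrays. In set 2, 94.7% of them have the same sign on both axes, while in set 3 they spread along the horizontal line (60.5%).

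Levels of single genes show which groups set these differences apart. Irf3 read 909.0 to 1057.3 on young RT1-Bb-high and 939.9 to 1071.6 on young RT1-Bb-low arrays of set 2, but 42.7 to 196.5 on the 8 young arrays of set 3. The unstaged arrays read 47.4 to 60.3 and, low in set 2, 208.3 to 375.6, and 63.0 to 82.2 in set 3. Among the young arrays, high Irf3 thus marked those of set 2 and not those of set 3. Vegfa had the same order, with 701.2 to 857.9 and 814.5 to 858.3 on young arrays of set 2 against 130.8 to 243.1 on those of set 3, where unstaged arrays read 132.4 to 215.4. Stk25 mirrored it, at 7.7 to 36.8 and 11.1 to 17.9 on young arrays of set 2 and at 39.0 to 190.7 on those of set 3.

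Pnn also read higher on young arrays of set 2 (508.0 to 690.9) than on young arrays of set 3 (87.1 to 178.9), while the unstaged arrays read 94.8 to 230.1 in set 2 and 59.5 to 204.4 in set 3. Pdpk1 read 40.9 to 81.8 on young arrays of set 2 and 207.2 to 360.5 on those of set 3. The 7 immature arrays of set 2 read 845.8 to 1061.5 for Irf3, 826.7 to 1052.8 for Vegfa and 701.1 to 1017.8 for Pnn, near or above the young arrays of set 2. For Stk25 they read 151.4 to 212.0, near the unstaged and not the young arrays of set 2. For Kl they read 445.3 to 628.1, above the young RT1-Bb-high arrays (168.9 to 185.3). High Irf3 was also read on some arrays of other stages and sets. It reached 1041.0 on the mature arrays of set 3 (median 75.9) and 1068.4 on the immature RT1-Bb-low arrays of set 1 (median 68.9). Technical set and any difference in the rats cannot be told apart for these levels.

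Single genes named above, Col3a1, Top2a, Cdk1, Cd74 and Klk1, kept their direction in all 3 sets of arrays, while the matrix list as a whole did not. They are examples, and 60.5% of the 673 called probe sets had the same sign in set 3, against 49.9% of all. The median of the 32 matrix genes was -0.28 on the RT1-Bb-high arrays, -0.20 on the low arrays of set 2 and 0.06 on those of set 3, where all genes had a median of 0.03. Medians of the class II list, which is not independent of the array rule, were 0.30, 0.29 and 0.21. Those of the cell cycle list were -0.19, -0.18 and -0.08. By its brightest probe set, Col3a1 read 635.5 to 1202.5 on the 8 young and 340.6 to 584.7 on the 8 unstaged arrays of set 3, without overlap. Its log2 differences were -1.22, -1.23 and -0.79 on the RT1-Bb-high arrays and the low arrays of sets 2 and 3, with adjusted p in set 3 of 0.086 (limma). Top2a gave -0.83, -0.94 and -0.63 and Cdk1 -1.02, -0.79 and -0.57, with overlapping groups in set 3. Cd74 gave 0.90, 0.78 and 0.45, and Klk1 0.88, 0.50 and 0.47. In set 3 the groups overlapped for Cd74, at 3065.0 to 5145.9 on young and 4467.7 to 6337.9 on unstaged arrays. For Klk1 they did not, at 5291.8 to 6242.8 and 6961.6 to 10199.9. None of these 5 passed in set 3, where the smallest adjusted p among them was 0.086.

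Other members had another sign, or a value near 0, in at least 1 set of low arrays. Slc9a3 gave -1.26, -0.83 and 0.21, Kl 1.86, 1.29 and -0.34 and Rps16 0.67, 0.52 and 0.03. RT1-Ba was 0.63 on the RT1-Bb-high arrays but -0.17 and 0.17 on the low arrays of sets 2 and 3. Cyp2c11 gave 1.01, -0.22 and 0.62, and Ccl2 -0.90, 0.22 and 0.29. For Kl the difference between the low arrays of sets 2 and 3 passed its test, as given above.

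**Figure D5:**
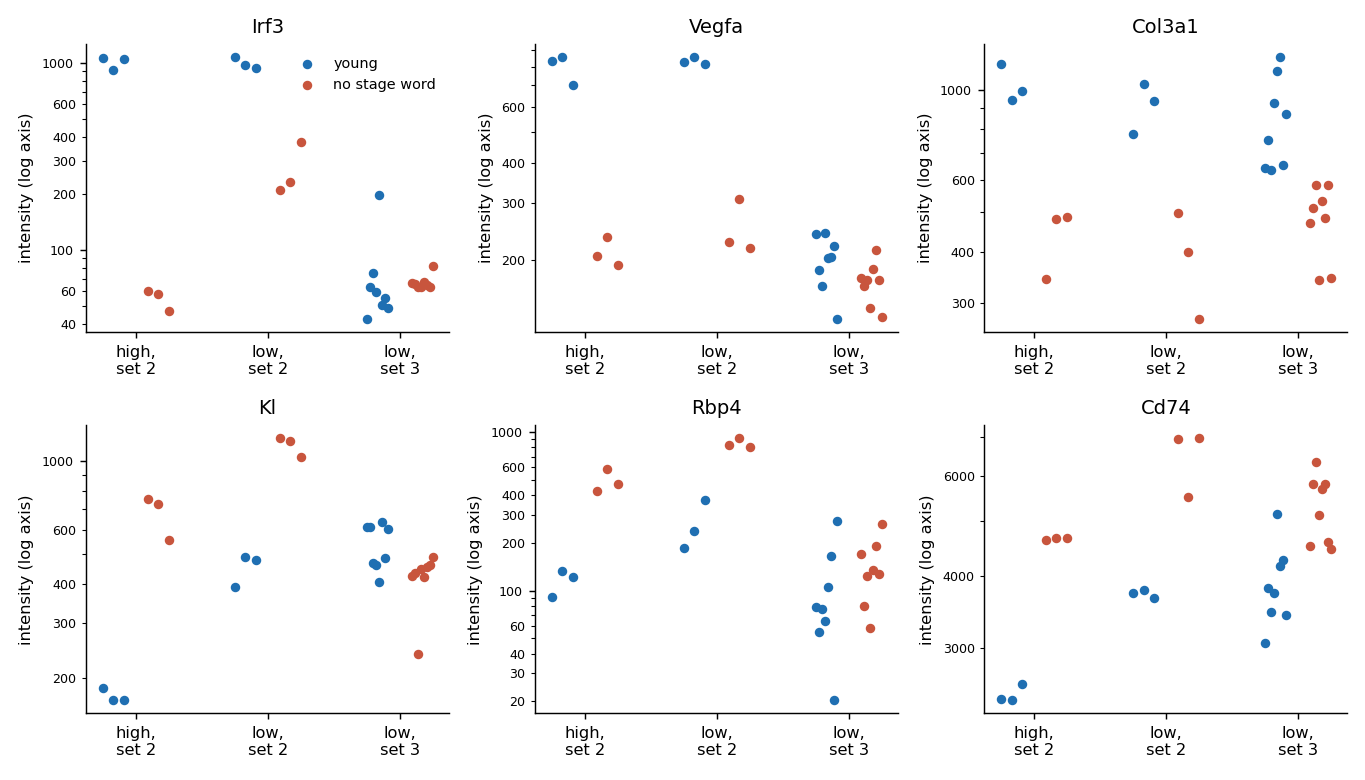
Intensity (log axis) on young (blue) and unstaged (red) arrays, RT1-Bb-high in technical set 2 (3 and 3), RT1-Bb-low in set 2 (3 and 3) and RT1-Bb-low in set 3 (8 and 8). Of the arrays plotted, Irf3 and Vegfa are highest on the young ones of set 2. Col3a1, by its brightest probe set, separates the groups in each of the 3 sets of arrays.

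Whether the contrast differed between RT1-Bb-high and RT1-Bb-low arrays was tested in a model over 28 arrays. It differed at 2 of 6555 probe sets (0.0305%), both without a gene name, with 441 at an unadjusted p below 0.05. Inside technical set 2, where both classes have 3 arrays a group, 0 were called, with 465 at an unadjusted p below 0.05, and Irf3 came nearest (adjusted p = 0.059). The 6 named genes with the smallest p over 28 arrays did not pass. They were Gp2 (-1.15, adjusted p = 0.12), Furin (-0.82, 0.27), Kl (1.76, 0.27), Rpl23 (0.62, 0.35), Dcaf6 (0.79, 0.39) and Aqp3 (-0.75, 0.39). Furin, a protease that cuts precursor proteins, read 2147.4, 2095.6 and 2001.4 on young and 1137.6, 1217.2 and 1136.8 on unstaged RT1-Bb-high arrays (-0.83 ± 0.10, adjusted p = 0.0079), against differences of 0.07 and -0.04 on the low arrays of sets 2 and 3. With technical set as a block 8 probe sets were called, among them Irf3 (-3.35), Gp2, Dcaf6 and, by probe sets other than their brightest, Rpl21 (1.27) and Kifc3 (-2.04).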

How the data were processed

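Each of 55 rat kidney samples has 1 single-colour Affymetrix array. The authors deposited linear intensities of 8799 probe sets, and how they summarised and scaled them is unknown (not given in the sources used here). Every array had a 2% trimmed mean of 500.2 to 500.7, so the deposited scaling was kept. The depth of a sequencing library does not apply.

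Groups follow the stage word of the description. The 6 arrays, the gene lists and the rules were chosen with earlier results of these data known. Before log2, 15.82 was added, 0.1 times the overall median, which understates dim genes' differences. Left out were 59 control probe sets and those whose mean log2 lay below the 25th percentile, which kept 6555. Symbols came from the platform annotation, updated through the gene identifier (6994 probe sets; RefSeq GRCr8); 7018 probe sets had 1 symbol, 308 several and 1473 none. A gene was its brightest probe set.

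Tests were limma 3.58.1 (lmFit, eBayes; R 4.3.3), 2-sided, with Benjamini-Hochberg adjustment over 6555 probe sets and a threshold of 0.05. Differences between RT1-Bb classes were an interaction term over 28 arrays. Named genes were the 12 largest rises and falls past the threshold, the members of smallest p in each list (at most 4) and the 6 genes with the smallest interaction p; list members outside it are named where a count is small, and were chosen after their values were seen. Lists were counted and not tested. Technical sets came from Ward clustering of 42 control probe sets, cut into 3 after seeing the data. Scaling, offset, filter, prior variance, array weights, samples and block were varied. The scripts were tested on simulated data.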

Additional observations from a re-analysis of the deposited data

Results flagged for a closer look

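Between RT1-Bb-high and RT1-Bb-low arrays, over 28 arrays, the difference of unstaged from young kidney itself differed at 2 probe sets without a gene name. For AF050660UTR#1_at the gap between the classes was -2.90 ± 0.48 (limma, adjusted p = 0.0098). Its difference was -2.36 on the RT1-Bb-high arrays, 1.06 on the low arrays of technical set 2 and 0.35 on those of set 3. For rc_AA859897_at the gap was -0.90 ± 0.16 (adjusted p = 0.025), with -0.90, -0.17 and 0.06 on the same 3 sets of arrays.

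Among RT1-Bb-low arrays, the difference of unstaged from young kidney differed between technical sets 2 and 3 at 109 probe sets. The smallest p belonged to Gstt2, with -1.70 in set 2 and 0.49 in set 3 (gap -2.19 ± 0.22) and -0.96 on the RT1-Bb-high arrays. Srsf2, by a probe set other than its brightest, gave -1.53 and 0.09, Zfp386 -1.75 and 0.01, and Mapk7 1.52 and 0.05, beside -0.58, -1.24 and 0.18 on the RT1-Bb-high arrays.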

How the results depend on the processing

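The number of probe sets called between unstaged and young RT1-Bb-high arrays, 673, stayed within 1.5 times under both other scalings, both other offsets, both other filters, a robust prior and array weights (495 to 929), and was 666 with the spread of the 12 young and unstaged arrays of technical set 2. It was 170 to 350 when 1 array was left out, 79 with the spread of all 12 RT1-Bb-high arrays and 4 with that of all 55 arrays. Among the values of the 113 named genes under these settings 0 turned direction, 484 lost their call and 73 gained one. The difference between RT1-Bb classes, called at 2 probe sets, was called at 0 with quantile normalization (329 at an unadjusted p below 0.05), 1 with an offset of 0.5 times the median, 3 with no filter, which adds Eif2ak2, 8 with technical set as a block and 0 inside technical set 2. On the RT1-Bb-low arrays 22 were called over both sets, 45 with technical set as a block, 795 inside set 2 with shared spread, 107 on its 6 arrays alone and 1 inside set 3. With quantile normalization the last 2 were 76 and 6. The cause of these changes was not tested. Technical set as a block in the comparison of the 6 arrays was not run, since all 6 lie in technical set 2. The labels name no batch. No paired analysis was possible because the replicate numbers were given in accession order and the labels pair no samples. How far each signal lies above background was not analysed here, since only summarised intensities were used.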

Other observations

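Srsf11, Srsf2, Nxf1 and other genes of RNA splicing and export were lower on the unstaged RT1-Bb-high arrays. The list was drawn up after these values were seen, so its counts support nothing. Of 36 genes tested (95 were listed) 11 were lower and 2 higher, which is 30.6% lower against 6.23% of all genes, with a median log2 difference of -0.30. With quantile normalization 10 were lower and with centring 9. Srsf11, a serine and arginine rich splicing factor, read 1134.4, 1155.6 and 1137.3 on young and 493.5, 397.7 and 403.8 on unstaged arrays (-1.38 ± 0.12, limma, adjusted p = 0.0043). Srsf2 read 2320.8, 2106.3 and 2278.8 against 979.0, 924.3 and 1183.6 (-1.11 ± 0.13). In both genes the groups lay far apart.

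Nxf1, the main export receptor for messenger RNA, read 1079.6, 1157.2 and 1119.0 against 489.0, 373.7 and 459.1 (-1.32 ± 0.13), and Ddx39b, an RNA helicase that recruits the export machinery, lay at -1.26. Nktr (-1.49), Hnrnpa2b1 (-1.22), Ptbp3 (-0.73), Sfpq (-0.65) and Hnrnpf (-0.56) were the other members called lower beside Pnn and Clk3, and Cirbp and Sart1 (0.92) were called higher. On the RT1-Bb-low arrays 4 members were called lower in technical set 2, with a list median of -0.32, and 0 in set 3, where the median was -0.03 and all genes had a median of 0.03.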
